A study of Saccharomyces cerevisiae with 17 samples.

Results

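The 60 genes described here encode proteins of the mitochondrial ribosome of budding yeast (Saccharomyces cerevisiae). They were taken by systematic name from the nuclear gene families MRPL, MRP, MRPS, RSM and IMG, out of 5797 identifiers in the count tables. All 60 names were found in the tables, and all 60 have a symbol of these families in the RefSeq gene table of the R64 assembly. By textbook assignment 38 belong to the large subunit and 22 to the small subunit. A further 9 identifiers with symbols of these families were not among the 60.

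The samples used here came from wild-type cells of strain BY4741, a haploid laboratory strain with deletions in HIS3, LEU2, MET17 and URA3. The cells were grown in rich YPD medium to an OD600 of 0.8. Libraries were made by SMORE-seq, which ligates adapters to RNA so that transcript ends can be mapped. The groups were poly(A)-selected RNA treated with CIP and TAP (1 library), poly(A)-selected RNA treated with TAP (1 library), and RNA after ribosomal RNA depletion (3 samples in 1 deposited table). TAP is a pyrophosphatase that cuts the cap and so makes capped ends open to ligation. CIP is a phosphatase that strips uncapped ends of the phosphate that ligation needs. No CIP or TAP is named for the ribo depletion samples, so selection and enzyme treatment cannot be told apart in comparisons with them. The other 12 samples of the series were not analysed here.

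The mitochondrial ribosome translates the few messages of the mitochondrial genome, most of which encode membrane subunits of the respiratory chain and of the ATP synthase. Its large subunit joins amino acids and opens the exit tunnel for the new chain toward the inner membrane, and its small subunit binds and decodes the message. Nearly all its proteins are made in the cytosol from nuclear genes and imported. Yeast can live on glucose by fermentation without this ribosome but cannot respire.

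The tables held 1097457 counts for CIP/TAP, 864536 for TAP and 2821480 for ribo depletion. Each group gave 1 table, so no difference below has a replicate check and no test was run. Intervals are exact and cover counting error only, not variation between libraries. The reads carried no molecular identifiers, so copies of the same molecule were not told apart and the intervals may be too narrow. Levels are given as CPM, the count divided by the summed count of its table and scaled alike in all 3. A gene listed at 0 could have had up to 3 counts, or 2.73 CPM in CIP/TAP, 3.47 CPM in TAP and 1.06 CPM in ribo depletion. The sources used here do not give the strand setting of the counting. A value is therefore the count listed under a gene's identifier, and transcripts of the gene, of its other strand and of its neighbours were not told apart. Among neighbours of the 60 genes, the cytosolic ribosomal protein genes RPS3, RPL36A, RPL11B and RPS27A were at 0 in every table. Listed levels and zeros are thus not read as expression of the named gene.

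At least 10 counts were found for 30 of the 60 in CIP/TAP, 28 in TAP and 25 in ribo depletion. These are 50%, 46.7% and 41.7% of the genes, beside 33%, 37.1% and 31.5% of all identifiers. The 60 genes summed to 12719 counts in CIP/TAP, 10675 in TAP and 29373 in ribo depletion. These sums were 1.16% of all CIP/TAP counts (exact 95% interval 1.14 to 1.18%), 1.23% of TAP (1.21 to 1.26%) and 1.04% of ribo depletion (1.03 to 1.05%). The mean per gene was 193.2, 205.8 and 173.5 CPM in the same order, beside a mean of 172.5 CPM over all identifiers. The 3 highest genes held 56.7% of the mitoribosomal counts in CIP/TAP, 63.3% in TAP and 75.3% in ribo depletion.

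Of the 60 genes, 21 reached 10 counts in all 3 tables, 6 in both poly(A) tables alone, 4 in ribo depletion alone and 4 in 1 poly(A) table alone. The remaining 25 stayed under 10 counts in every table. Of all 5797 identifiers, 1285 reached 10 counts in all 3 tables (22.2%, beside 35% of the 60). Both poly(A) tables alone held 275 of them, ribo depletion alone 266, and 3031 stayed under 10 counts in every table. Among the 25 mitoribosomal genes 21 were listed at 0 throughout (35% of the 60, beside 39.6% of all identifiers). For the large subunit these were MRPL3, MRPL10, MRPL16, MRPL19, MRPL22, MRPL27, MRPL35, MRPL36, MRPL38, MRPL44, MRPL49 and IMG2. For the small subunit they were MRP13, MRP51, MRPS17, MRPS18, MRPS28, MRPS35, RSM7, RSM23 and RSM26. This group includes proteins of the conserved core of the ribosome, such as MRPL22 at the wall of the exit tunnel. MRPL1, MRPL9, MRPS5 and RSM10 had 1 to 6 counts where they were listed above 0. A listing at 0 is a value of the table and is not read as a silent gene.

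**Figure D1:**
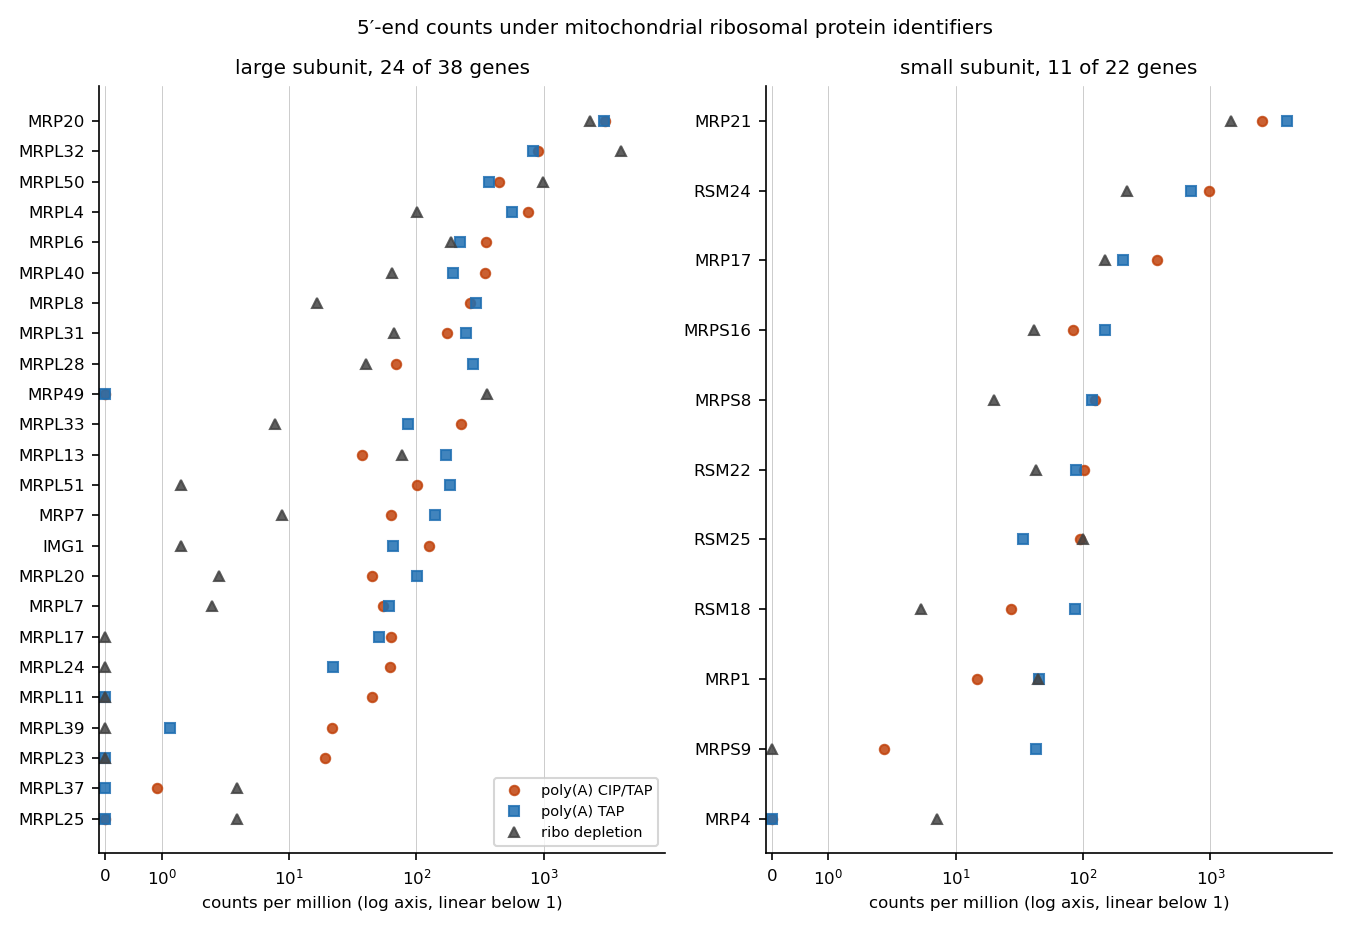
CPM (x axis, logarithmic, linear below 1) for the 35 genes with at least 10 counts in any table, 24 of the large subunit on the left and 11 of the small subunit on the right. Circles are CIP/TAP, squares TAP and triangles ribo depletion, each 1 table; MRP20 and MRP21 are the highest in both poly(A) tables, and MRPL32 is the highest in ribo depletion.

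Among large subunit genes the highest listing in both poly(A) tables was MRP20, whose protein sits at the exit of the tunnel. MRP20 (YDR405W, R64 chromosome IV, 1277646 to 1278437, plus strand) had 3348 counts in CIP/TAP, 2571 in TAP and 6537 in ribo depletion, or 3051, 2974 and 2317 CPM. Its CPM was close in both poly(A) tables. Set against ribo depletion its direction depends on the scaling: the log2 ratio was 0.40 for CIP/TAP and 0.36 for TAP with total counts, as in CPM, but −0.66 and −0.92 with TMM (trimmed mean of M-values) scaling, which the comparisons below use. MRPL32 (YCR003W, chromosome III, 118620 to 119171, plus strand) encodes a protein that the m-AAA protease of the inner membrane matures before the ribosome is assembled. It had 998, 710 and 11506 counts in the same order, or 909.4, 821.2 and 4078 CPM. MRPL32 was the highest member in ribo depletion and made up 39.2% of all mitoribosomal counts there.

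Next among large subunit genes by mean CPM came MRPL50, MRPL4 and MRPL6. MRPL50 (YNR022C, chromosome XIV, 669774 to 670193, minus strand) had 487 counts in CIP/TAP, 320 in TAP and 2788 in ribo depletion. Like MRPL32, it was higher in CPM in ribo depletion than in either poly(A) table. MRPL4 (YLR439W, chromosome XII, 1014491 to 1015450, plus strand), another protein at the tunnel exit, had 830, 489 and 284 counts in the same order. MRPL4 was higher in both poly(A) tables, at 756.3 and 565.6 CPM, than in ribo depletion, at 100.7 CPM. MRPL6 (YHR147C, chromosome VIII, 392639 to 393283, minus strand), of the conserved core, had 390, 192 and 532 counts, or 355.4, 222.1 and 188.6 CPM. With TMM scaling its log2 ratio to ribo depletion was −0.14 for CIP/TAP and −1.05 for TAP, opposite in direction to CPM.

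In the small subunit MRP21 stood far above the others. MRP21 (YBL090W, chromosome II, 48825 to 49358, plus strand), a homologue of a bacterial small subunit protein, had 2798 counts in CIP/TAP, 3477 in TAP and 4078 in ribo depletion, or 2550, 4022 and 1445 CPM. It made up 58.6%, 73.2% and 69.6% of the small subunit counts in the same order. RSM24 (YDR175C, chromosome IV, 813193 to 814152, minus strand), a mitochondria-specific protein, had 1068, 607 and 629 counts. MRP17 (YKL003C, chromosome XI, 437097 to 437492, minus strand) had 418, 177 and 422 counts. Its CPM was 380.9, 204.7 and 149.6. Set against ribo depletion with TMM scaling, the log2 ratio of MRP17 was 0.30 for CIP/TAP and −0.83 for TAP. For MRP21 it was −0.23 and 0.19, so the directions seen in CPM depend on the scaling. The next small subunit gene in CIP/TAP was MRPS8, with 136 counts, 102 in TAP and 56 in ribo depletion.

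The order of the highest members differed between tables by more than counting error at the top. In CIP/TAP the count of MRP20 (95% interval 3236 to 3463) lay above that of MRP21 (2695 to 2904). In TAP it was the reverse, with MRP20 at 2473 to 2672 and MRP21 at 3362 to 3595. The intervals of RSM24 and MRPL32, in places 3 and 4, overlapped in CIP/TAP. The counts and CPM above are per gene and not per length. Divided by gene length, MRP21 led in both poly(A) tables, with 4774 and 7531 CPM per kb against 3852 and 3755 for MRP20. Per kb in ribo depletion MRPL32 led with 7388, followed by MRP20 with 2925 and MRP21 with 2707.

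At least 10 counts were found for 21 of 38 large subunit genes and 9 of 22 small subunit genes in CIP/TAP (55.3% and 40.9%). In TAP the numbers were 18 and 10 (47.4% and 45.5%), and in ribo depletion 15 and 10 (39.5% and 45.5%). Mean CPM per gene was 190.4 for the large and 197.9 for the small subunit in CIP/TAP, and 180.4 and 249.7 in TAP. In ribo depletion it was 219.3 for the large and 94.4 for the small subunit. These means rest on few genes. Without the highest gene of each subunit they were 113.1 and 85.9 CPM in CIP/TAP, 104.9 and 70.1 in TAP, and 115 and 30.1 in ribo depletion, with the large subunit higher each time. The 6 genes counted in both poly(A) tables but not in ribo depletion were all of the large subunit, namely MRPL7, MRPL17, MRPL20, MRPL24, MRPL51 and IMG1. Over all identifiers 275 of 5797 showed this pattern, and none of the 22 small subunit genes did. The contrast rests on few genes and on the minimum of 10 counts. In ribo depletion MRPL7, MRPL20, MRPL51 and IMG1 had 7, 8, 4 and 4 counts, and MRPL17 and MRPL24 had 0. The small subunit gene RSM18 fell likewise, with 30 counts in CIP/TAP, 75 in TAP and 15 in ribo depletion, but passed the minimum. Counted in ribo depletion alone were 3 large and 1 small subunit genes.

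Mitoribosomal genes with a divergent gene close upstream were counted more often than the others. Upstream of the gene start, the closest annotated neighbour was divergent (on the opposite strand, transcribed away) and within 500 bp for 26 of the 60, or 43.3%, beside 25.6% of all identifiers. Of these 26, at least 10 counts were found for 22 in CIP/TAP, 22 in TAP and 21 in ribo depletion (84.6%, 84.6% and 80.8%). The shares over all identifiers of this class were 72.9%, 76.6% and 70.2%. Another 10 genes had a divergent neighbour farther away, and 4, 2 and 1 of them reached 10 counts, beside 21.4%, 25.5% and 20.5% of all identifiers of this class. Among the 24 with a tandem neighbour (on the same strand) 4, 4 and 3 reached 10 counts (16.7%, 16.7% and 12.5%), beside 18.2%, 22.5% and 17.1% of all tandem identifiers. The 26 genes with a close divergent neighbour held 96.4% of the mitoribosomal counts in CIP/TAP, 97.6% in TAP and 96% in ribo depletion. Over all identifiers the same class held 87.2%, 85.6% and 86.4% of the counts. The part of this arrangement in the higher share of counted mitoribosomal genes was not tested.

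**Figure D2:**
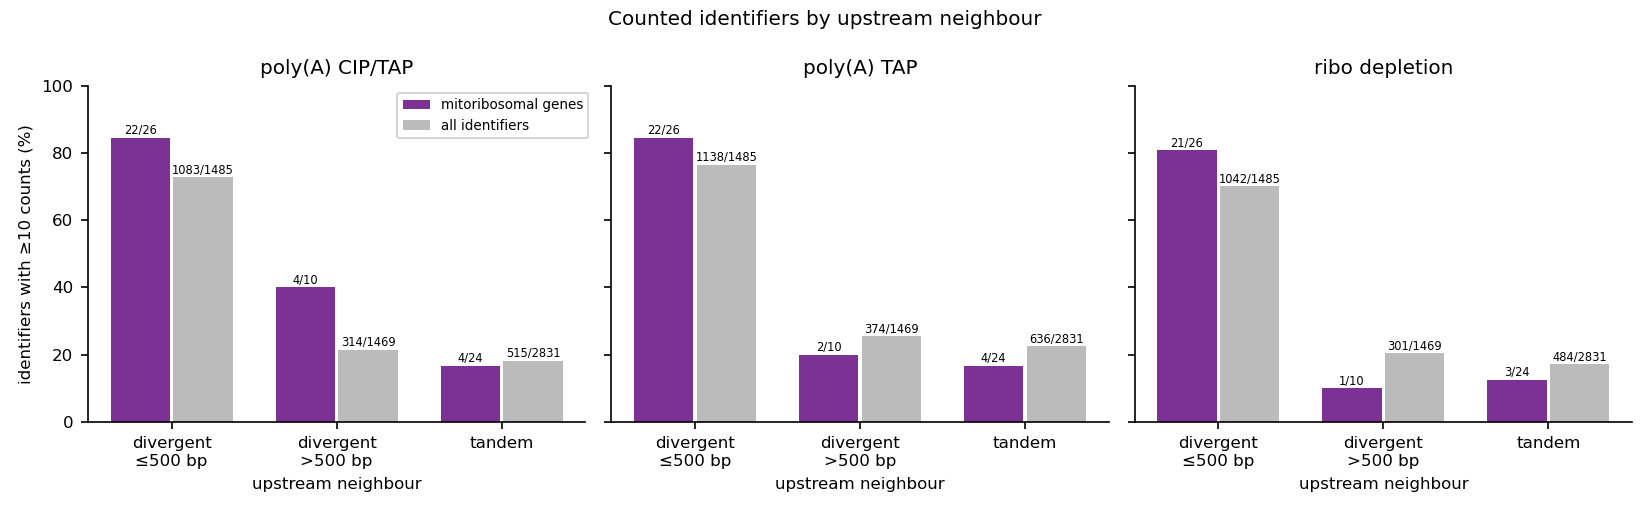
Share of identifiers with at least 10 counts (y axis, percent, from 0) by upstream neighbour, with 1 panel for each table. Dark bars are the mitoribosomal genes and grey bars all identifiers, labelled with counted over total; both fall from over 70% with a divergent neighbour within 500 bp to at most 22.5% with a tandem one.

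By subunit, a close divergent neighbour was found for 15 of 38 large and 11 of 22 small subunit genes (39.5% and 50%). Within that class 14 of 15 large subunit genes and 8 of 11 small subunit genes were counted in CIP/TAP, with the same numbers in TAP. In ribo depletion the numbers were 12 of 15 and 9 of 11. The 3 genes of the class that were at 0 in every table were MRPL16, MRP51 and MRPS17. The upstream neighbour was a tRNA gene for MRPL3, MRPL10 and RSM26, all listed at 0 throughout. Annotated genes overlapped MRPL19 (YNL184C), MRPL51 (YPR099C) and MRP4 (YHL005C), so counts of these 3 are uncertain.

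In the 26 close divergent pairs the mitoribosomal genes summed to fewer counts than their neighbours, a direction that rested on few pairs. The sums were 12265 for mitoribosomal genes and 15762 for neighbours in CIP/TAP, 10419 and 12319 in TAP, and 28193 and 50696 in ribo depletion. The neighbour sums were the larger through CMC1 in CIP/TAP and TAP (5140 and 2868 counts). In ribo depletion this was so through CMI8 and MEH1 (20710 and 13546 counts). In 11 pairs the mitoribosomal gene exceeded its neighbour in every table, in 10 the neighbour exceeded it in every table, and 5 were mixed or tied. Both partners reached 10 counts in 20 pairs in CIP/TAP, 19 in TAP and 17 in ribo depletion. Of all identifiers with a close divergent neighbour, 72.9%, 76.6% and 70.2% reached 10 counts. The same numbers for all divergent pairs are not given here. A high count on one side was thus found both with and without a count on the other.

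By mean CPM over the 3 tables the first neighbour was CMI8, 306 bp from MRPL28, through its ribo depletion count. In both poly(A) tables CMC1, beside MRPL31, was higher. MRPL28 had 76 counts in CIP/TAP, 242 in TAP and 113 in ribo depletion, against 1261, 1096 and 20710 for CMI8. MRPL31 had 192, 211 and 189 counts, against 5140, 2868 and 1377 for CMC1, a mitochondrial copper-binding protein gene 275 bp away. In CPM, MRPL31 was at 174.9, 244.1 and 67.0, lowest in ribo depletion, and its neighbour was highest in CIP/TAP. MRPL13 had 41, 149 and 219 counts, against 1752, 1169 and 13546 for MEH1, a subunit of the vacuolar EGO complex, 216 bp away. MRPL51 had 112, 158 and 4 counts, against 1223, 1141 and 4740 for TMH18 at 262 bp. RSM18 had 30, 75 and 15 counts, against 1109, 1114 and 3826 for JHD1, a histone demethylase gene, at 268 bp. RSM25 had 103, 29 and 280 counts, against 1357, 936 and 1056 for YIL092W at 281 bp. In each of these 6 pairs the neighbour was higher in every table. The same was true of MRP51, a small subunit gene. It had 0 in every table, against 438, 159 and 386 for the helicase gene DBP1 at 363 bp.

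The opposite held at the highest mitoribosomal genes. MRPL32 had 998, 710 and 11506 counts in CIP/TAP, TAP and ribo depletion, against 1, 0 and 10 for the septin gene CDC10, which lies 271 bp away. RSM24 had 1068, 607 and 629 counts, against 131, 79 and 1 for NGG1, a subunit gene of the SAGA coactivator, at 299 bp. MRP21 had 2798, 3477 and 4078 counts, against 119, 186 and 303 for the methionine aminopeptidase gene MAP2 at 196 bp. MRP20 had 3348, 2571 and 6537 counts, against 570, 263 and 226 for the RNA polymerase II subunit gene RPB7 at 476 bp.

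**Figure D3:**
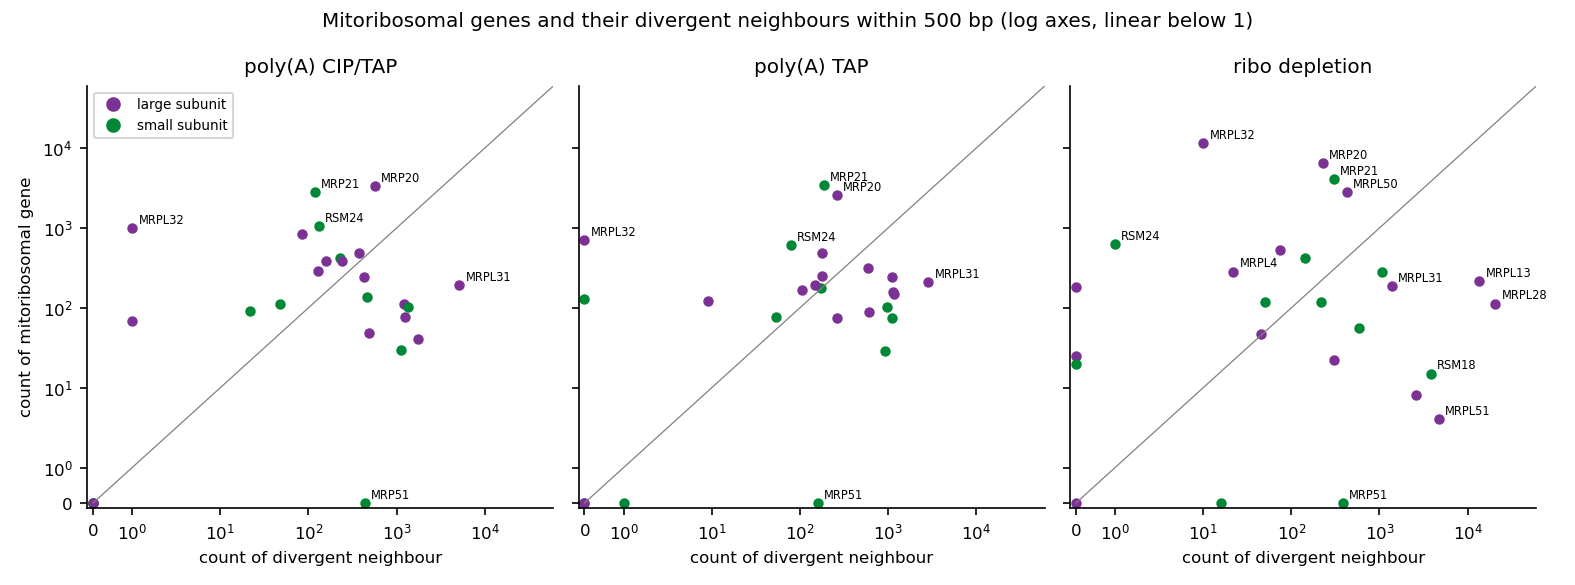
Count of each mitoribosomal gene (y axis) against the count of its divergent neighbour within 500 bp (x axis) in the 26 pairs, both axes logarithmic and linear below 1, with 1 panel for each table. Points above the grey line of equal counts, such as MRPL32, MRP21, MRP20 and RSM24, have more counts than their neighbour, and points below it, such as MRPL31 and MRP51, have fewer.

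Genes without a close divergent neighbour had at most 139 counts in any table, except MRP49. MRP49 (YKL167C, chromosome XI, 133721 to 134134, minus strand), a mitochondria-specific protein of the large subunit, had 0 counts in CIP/TAP, 0 in TAP and 1011 in ribo depletion. Its upstream neighbour TPK3, a catalytic subunit gene of protein kinase A, lies 374 bp away on the same strand and had 518, 235 and 21 counts. Its downstream neighbour KKQ8, also on the same strand, had 0, 21 and 0. The neighbours were thus low where MRP49 was high. IMG1, with BUD23 in tandem at 294 bp, had 139, 57 and 4 counts. MRPL17, with NRD1 in tandem at 301 bp, had 70, 44 and 0 counts, and MRPL24, with GYL1 in tandem at 755 bp, had 68, 19 and 0. Among genes with a far divergent neighbour, MRP1 had 16, 39 and 124 counts and MRPL7 had 60, 53 and 7.

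CIP/TAP and TAP libraries differed by the CIP step. Mitoribosomal genes went both ways, with 6 higher, 6 lower and 15 within 2-fold among the 27 with at least 50 counts over both tables. The shares were 22.2% higher and 22.2% lower, beside 22.2% higher and 15.6% lower among all 1679 identifiers measured (37.8% either way). The median log2 ratio was 0.23 for mitoribosomal genes and 0.16 for all identifiers. It was 0.25 for the 18 large subunit genes measured and 0.23 for the 9 of the small subunit. The share of higher genes equalled the background. The subunit medians differed by 0.02, large minus small, or by 0.56 among genes with at least 10 counts. With scaling by total counts or upper quartile 3 genes were higher rather than 6. The shares over all identifiers with these scalings are not given here.

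The ratios ranged from a log2 of −2.03 to 1.63. MRPL13 had 41 counts in CIP/TAP against 149 in TAP (log2 −2.03, 95% interval −2.58 to −1.54), and MRPL28 had 76 against 242 (−1.85, −2.25 to −1.48). RSM18 (−1.49), MRP1 (−1.44), MRPL20 (−1.02) and MRP7, whose protein lies near the catalytic centre of the large subunit, were also at least 2-fold lower. MRP7 had 69 counts against 122 and stood at the 2-fold limit. With DESeq2 size factors MRPL20 was at −0.99 and MRP7 at −0.97, within 2-fold. On the other side RSM25 had 103 counts against 29 (1.63, 1.04 to 2.29) and MRPL33 had 245 against 75 (1.52, 1.15 to 1.92). MRPL24 was at 1.63 (0.90 to 2.47) and IMG1 at 1.10 (0.65 to 1.57). MRP17 was at 1.05 and MRPL40 at 1.01. IMG1, MRP17 and MRPL40 fell under the 2-fold limit with total counts (0.93, 0.89 and 0.85) and with upper-quartile scaling (0.89, 0.85 and 0.81). The genes with most counts were within 2-fold. MRP20 was at 0.20 (0.12 to 0.27), or −0.01 with upper-quartile scaling, MRPL32 at 0.31 (0.17 to 0.45) and MRP21 at −0.50 (−0.57 to −0.42).

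**Figure D4:**
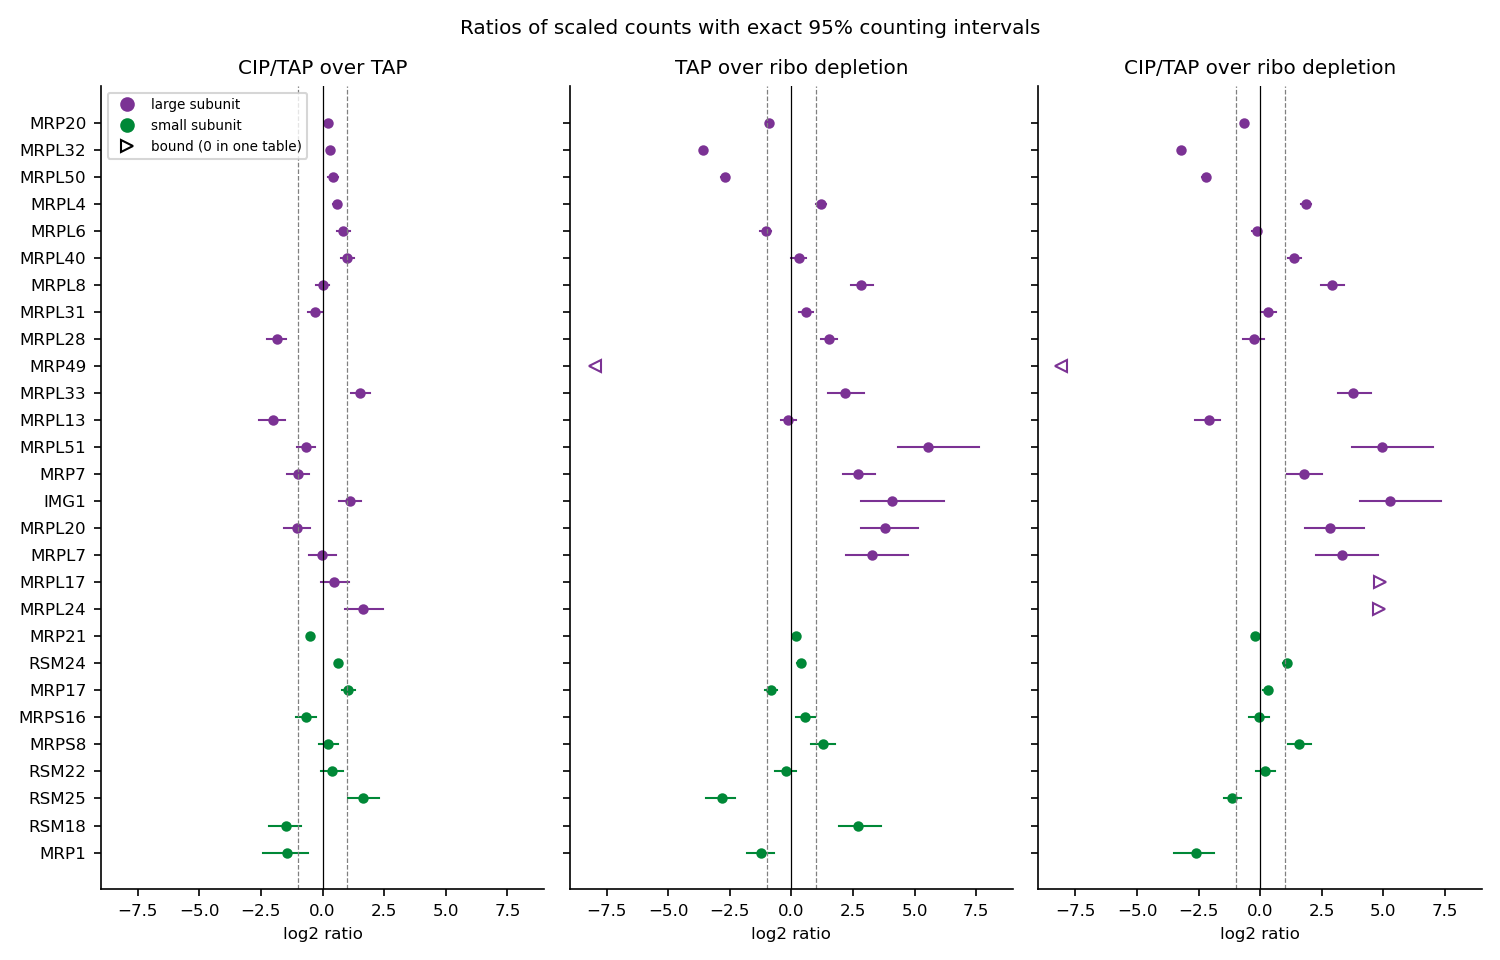
Log2 ratios of scaled counts (x axis) for the mitoribosomal genes with at least 50 counts over both tables of a comparison, with 1 panel for each comparison. Points carry exact 95% counting intervals, open arrowheads are bounds for genes at 0 in 1 table, and dashed lines mark 2-fold; for CIP/TAP over TAP all points lie between −2.03 and 1.63, and the spread is wider against ribo depletion.

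TAP and ribo depletion differed in how RNA was selected and in the enzyme named. Among 26 mitoribosomal genes with enough counts, TAP was higher by 2-fold or more for 11, lower for 6 and within 2-fold for 9. The shares were 42.3% higher and 23.1% lower, beside 31.9% and 38% of all 1646 identifiers measured (69.9% either way). The median log2 ratio was 0.47, against −0.18 over all identifiers. The median of all identifiers shifted by 1.28 with total counts, by 0.37 with upper-quartile scaling and by −0.13 with DESeq2 size factors, so a ratio is read against that median. With total counts 18 genes were higher and the median was 1.75, beside a median of 1.10 over all identifiers. Among genes with at least 200 counts 3 were higher and the median was 0.03. Shares over all identifiers under these settings are not given here, so these numbers of higher genes have no background.

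MRPL51 had 158 counts in TAP against 4 in ribo depletion, a log2 ratio of 5.56 (4.34 to 7.62). IMG1 had 57 against 4 (4.10, 2.82 to 6.18) and MRPL20 had 88 against 8 (3.80, 2.84 to 5.14). MRPL7 (3.26), MRPL8 (2.84), RSM18 (2.71), MRP7 (2.69), MRPL33 (2.17), MRPL28 (1.52), MRPS8 (1.28) and MRPL4 (1.20) were also higher. Of these 11 genes, 9 belong to the large subunit. In the other direction MRP49, with 0 counts against 1011, was at least 252-fold lower in TAP. MRPL32 had 710 counts against 11506 (−3.60, −3.71 to −3.49), RSM25 had 29 against 280 (−2.83, −3.45 to −2.30) and MRPL50 had 320 against 2788 (−2.70, −2.87 to −2.53). MRP1 was at −1.23 and MRPL6 at −1.05. With total counts they were at 0.05 and 0.24, and with upper-quartile scaling at −0.87 and −0.68, so neither kept its call. MRP20 at −0.92 and MRP21 at 0.19 were within 2-fold, though MRP20 was at −1.05 with DESeq2 size factors and at 0.36 with total counts.

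CIP/TAP against ribo depletion uses the same ribo depletion table, so its values are not a second measurement of that difference. Among 27 mitoribosomal genes with enough counts, CIP/TAP was higher by 2-fold or more for 13 and lower for 6 (48.1% and 22.2%). The shares over all 1700 identifiers measured were 36.4% and 35.6% (72% either way). The median log2 ratio was 0.33, against 0.02 over all identifiers, and total counts shifted the last by 1.05. IMG1 had 139 counts against 4 (5.26, 4.04 to 7.32), MRPL51 had 112 against 4 (4.95, 3.72 to 7.02) and MRPL33 had 245 against 22 (3.76, 3.16 to 4.49). MRPL17 had 70 counts against 0 and was at least 28.9-fold higher, and MRPL24 had 68 against 0 and was at least 28.1-fold higher. MRPL7, MRPL8, MRPL20, MRPL4, MRP7, MRPS8, MRPL40 and RSM24 were higher as well, at 3.32 down to 1.07. MRP49 was at least 272-fold lower. MRPL32 was at −3.22 (−3.31 to −3.12), MRP1 at −2.61 (−3.50 to −1.89), MRPL50 at −2.21 (−2.35 to −2.07), MRPL13 at −2.09 (−2.63 to −1.62) and RSM25 at −1.13 (−1.47 to −0.80). RSM25 was at −0.08 with total counts.

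The subunits were also set side by side against ribo depletion. For TAP against ribo depletion 9 of 17 large subunit genes were higher and 4 lower, and 2 of 9 small subunit genes were higher and 2 lower. The medians were 1.20 for the large and 0.19 for the small subunit. For CIP/TAP against ribo depletion 11 of 19 large subunit genes were higher and 4 lower, and 2 of 8 small subunit genes were higher and 2 lower, with medians of 1.76 and 0.09. The difference of medians, large minus small, was 1.01 and 1.67. With a filter of 10 counts it was 0.70 and 1.72. Among genes with at least 200 counts it was −0.32 and −0.23, so its direction rested on genes with fewer counts. Genes are not replicates, and this difference was not tested. Setting genes at 0 to their bounds left each median in these comparisons as given.

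Other genes of mitochondrial translation formed a list of 56, for further mitoribosomal proteins, translation factors, activators of single messages, aminoacyl-tRNA synthetases, and factors of assembly and membrane attachment. At least 10 counts were found for 28 in CIP/TAP, 29 in TAP and 27 in ribo depletion (50%, 51.8% and 48.2%). The shares over all identifiers were 33%, 37.1% and 31.5%. Translation factors had 1, 3 and 2 of 8 (12.5%, 37.5% and 25%), in TAP close to the share over all identifiers. The synthetases had 9, 7 and 7 of 13 (69.2%, 53.8% and 53.8%). With so few genes these classes are not ranked. For CIP/TAP against TAP 5 of 26 measured were higher and 4 lower (19.2% and 15.4%, beside 22.2% and 15.6% of all identifiers measured). In TAP against ribo depletion 11 of 30 were higher and 9 lower (36.7% and 30%, beside 31.9% and 38%). In CIP/TAP against ribo depletion 11 of 28 were higher and 10 lower (39.3% and 35.7%, beside 36.4% and 35.6%). The medians of these 3 comparisons were 0.20, 0.09 and 0.04, beside 0.16, −0.18 and 0.02 over all identifiers.

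By mean CPM over the 3 tables, MHR1, PET309, PET54 and MNP1 came first, MHR1 and PET54 through their ribo depletion counts. MHR1, which encodes a large subunit protein also known for a role in mitochondrial DNA recombination, had 1326 counts in CIP/TAP, 219 in TAP and 31904 in ribo depletion. PET54, an activator of COX3 translation, had 19, 52 and 23481 counts and lies 250 bp from the small nuclear RNA gene SNR7-L. Both were far higher in ribo depletion. PET309, an activator of COX1 translation, had 4396, 3411 and 1382 counts. MNP1, a large subunit protein gene, had 3285, 3411 and 1765. In CPM, PET309 and MNP1 were higher in both poly(A) tables than in ribo depletion. Like MRP20 and MRP21 they had a divergent neighbour within 500 bp, FYV7 at 297 bp for PET309 and RPB9 at 259 bp for MNP1.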

How the data were processed

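SMORE-seq tables were used for 5 samples. What the authors deposited are raw read counts, 1 whole number for each identifier and table. Tools named in the submitters' processing notes, in no order and with no role, are BWA 0.6.2, featureCounts, bedtools and bcl2fastq, with the build sacCer3. How the 3 ribo depletion samples were combined into 1 table is not stated. Of 5797 identifiers, 5794 matched the R64 gene table (the assembly sacCer3 names). The W or C in a systematic name gave the strand, and neighbours are the nearest genes that do not overlap.

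Ratios are log2 of (count + 0.5) over library sizes scaled for each pair with edgeR 4.0.16 (TMM, R 4.3.3), for identifiers whose counts in the pair summed to 50 or more. A ratio of at least 2-fold was called higher or lower. Exact 95% intervals (Poisson for counts, Clopper-Pearson for shares and ratios) came from scipy 1.17.1. The ratio step was run on simulated data with counting error alone and most genes unchanged. That setting differs from the comparisons with ribo depletion, where 69.9% (TAP) and 72% (CIP/TAP) of all identifiers measured passed 2-fold. Against a count of 0 a bound from 3 counts per table is given. Members and lists, and the subunit assignment, were chosen with earlier results of these data known. Named by rule were the 8 highest genes of each table, genes past 2-fold with at least 200 counts, genes at 0 in 1 table with at least 50 in another, the 6 pairs with the highest neighbour, and the 4 highest of the 56 other genes; further names account for the remaining members and were chosen after their values were seen. Promoter and protein sequences were not used here. Alternatives were other scalings (DESeq2 1.42.0 size factors among them), filters, prior counts and neighbour distances.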

Additional observations from a re-analysis of the deposited data

How the results depend on the processing

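Of 99 recomputed summary values, 80 stayed within 1.5 times the reported count or inside counting error, and 19 did not. For CIP/TAP against TAP, the genes at least 2-fold higher numbered 3 with total counts, with upper-quartile scaling and with a filter of 200 counts, and 10 without a filter. Lower genes numbered 1 with the filter of 200, and large minus small subunit was 0.56 with a filter of 10 counts. For TAP against ribo depletion, 18 were higher with total counts (median 1.75), 3 with at least 200 counts (median 0.03), and 11 were lower without a filter. Large minus small was 0.70 with a filter of 10 and −0.32 with one of 200. For CIP/TAP against ribo depletion, the median was 1.38 with total counts, 0.70 with a filter of 10 and −0.04 with one of 200. With that last filter 5 were higher and large minus small was −0.23, and without a filter 12 were lower. MRPL6 turned to 0.24 with total counts for TAP against ribo depletion. Filters change which genes are measured, and scalings shift all ratios of a comparison together. With total counts the medians over all identifiers were 1.10 for TAP and 1.07 for CIP/TAP against ribo depletion. Shares over all identifiers under these settings are not given, so the changed numbers of higher or lower genes have no background. Numbers of counted genes, by subunit and with minimums of 1 and 50, and of counted genes with a close divergent neighbour at 350 and 1000 bp stayed within 1.5 times. The last of these also did so with neighbours limited to identifiers in the tables, an alternative chosen after seeing the data. No paired analysis was possible because each group had 1 table with no replicate values, and for the same reason no replicate could be left out. No ratio was measured for genes under 50 counts over both tables, 33, 34 and 33 of the 60 in the order above. The part of sequencing depth in this was not tested.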
